A study of Rattus norvegicus with 22 samples.

Results

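Members of the machinery of apoptosis, or programmed cell death, were followed across rat male germ cells, 9 genes in all: Bcl2, Bcl2l1, Mcl1, Bad, Bcl2l14, Apaf1, Htra2, Casp1 and Tradd. They were chosen by name, by taking every non-control probe whose transcript accession mapped to 1 of these symbols in RefSeq's rat gene table, which gave 14 of 30367 probes and 9 of 15154 named genes. The 22 one-colour Agilent arrays formed 4 groups: round spermatids of rats given cyclophosphamide (n = 6), round spermatids of rats given saline (n = 6), pachytene spermatocytes of rats given cyclophosphamide (n = 5) and pachytene spermatocytes of rats given saline (n = 5). Male rats were dosed by gavage, on 6 days per week for 4 weeks, with cyclophosphamide at 6 mg/kg or with saline. Cyclophosphamide is an alkylating anticancer drug whose metabolites damage DNA. Pachytene spermatocytes are germ cells in the long prophase of meiosis, and round spermatids are the haploid cells that follow. Both were enriched from testis by sedimentation at unit gravity (the STA-PUT method), which separates cells by size and leaves other cell types in each fraction. Each array was taken as a separate rat, also the 2 cyclophosphamide pachytene arrays that share the number 16. Strain, age and the tie between equal rat numbers are not given in the sources used here.

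Cells die by apoptosis along a mitochondrial route or a death receptor route. On the mitochondrial route, survival proteins of the BCL2 family (Bcl2, Bcl2l1, Mcl1) hold back the pore formers Bax and Bak1, and BH3-only proteins such as Bad oppose the survival proteins. Once mitochondria are permeable, cytochrome c joins Apaf1 in the apoptosome, which activates caspase 9, and the mitochondrial protease Htra2 is released and removes inhibitor of apoptosis proteins. On the receptor route, the adaptor Tradd binds the TNF receptor. Casp1 is an inflammatory caspase, which matures interleukins in inflammasomes and is best known from myeloid cells. Bcl2l14 (BCL-G) is a BCL2 family protein abundant in the testis of mice, whose part in cell death is not settled. Germ cell apoptosis is a normal feature of the testis, and meiotic germ cells are among the cells known to die after DNA damage.

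The promoters of the 5 genes below are shown because they are from genes that differed between the cell types in both directions and because their CpG content covers the range found in the set. Each is the RefSeq window on build GRCr8 from 250 bases before to 50 bases after the table's transcript start, 5′ to 3′ on the gene's strand, with CpG dinucleotides in capitals. Bcl2l14 (chr4:168948730-168949029, + strand) and Casp1 (chr8:10872580-10872879, + strand) come first, followed by Apaf1 (chr7:27466723-27467022, - strand), Bad (chr1:213562864-213563163, + strand) and Mcl1 (chr2:185907918-185908217, + strand).
Bcl2l14: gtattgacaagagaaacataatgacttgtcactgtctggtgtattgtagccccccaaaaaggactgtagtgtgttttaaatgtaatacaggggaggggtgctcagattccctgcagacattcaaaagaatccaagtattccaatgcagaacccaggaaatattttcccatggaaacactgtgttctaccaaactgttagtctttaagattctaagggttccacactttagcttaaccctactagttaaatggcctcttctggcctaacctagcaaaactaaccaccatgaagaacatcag
Casp1: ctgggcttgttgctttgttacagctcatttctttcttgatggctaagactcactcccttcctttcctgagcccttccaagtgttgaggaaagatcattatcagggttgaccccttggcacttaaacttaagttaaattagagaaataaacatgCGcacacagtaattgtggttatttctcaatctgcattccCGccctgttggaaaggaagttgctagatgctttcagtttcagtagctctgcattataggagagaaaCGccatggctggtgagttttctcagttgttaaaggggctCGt
Apaf1: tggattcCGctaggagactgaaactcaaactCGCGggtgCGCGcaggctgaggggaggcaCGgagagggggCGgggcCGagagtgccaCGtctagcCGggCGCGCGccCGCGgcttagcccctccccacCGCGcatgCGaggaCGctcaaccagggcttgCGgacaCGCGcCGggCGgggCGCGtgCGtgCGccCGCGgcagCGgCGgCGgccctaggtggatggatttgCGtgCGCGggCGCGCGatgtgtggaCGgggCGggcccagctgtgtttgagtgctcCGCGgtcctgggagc
Bad: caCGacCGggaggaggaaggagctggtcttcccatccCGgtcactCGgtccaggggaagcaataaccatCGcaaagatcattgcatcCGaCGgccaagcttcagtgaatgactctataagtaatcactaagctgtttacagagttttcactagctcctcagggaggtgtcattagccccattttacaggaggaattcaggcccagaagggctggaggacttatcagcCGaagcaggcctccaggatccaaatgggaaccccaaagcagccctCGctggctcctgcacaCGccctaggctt
Mcl1: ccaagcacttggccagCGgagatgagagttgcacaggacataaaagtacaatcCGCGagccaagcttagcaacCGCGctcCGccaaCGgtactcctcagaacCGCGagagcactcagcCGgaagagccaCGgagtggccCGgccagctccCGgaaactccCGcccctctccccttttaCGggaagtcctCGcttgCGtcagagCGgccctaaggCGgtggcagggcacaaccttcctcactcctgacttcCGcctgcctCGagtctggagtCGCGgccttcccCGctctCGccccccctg

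Over all 33469 windows the median was 7 CpG. The Bcl2l14 window held 0 CpG, the Casp1 window 4, the Bad window 10, the Mcl1 window 25 and the Apaf1 window 43. Of all windows, 97.9% had fewer CpG than that of Apaf1. Bcl2 had 7 CpG, and the 4 start sites listed for Bcl2l1 had 27, 2, 17 and 7. Thus 7 of the 9 genes had a window in the table, in 10 windows. Of the genes higher in round spermatids (below), Bcl2l14 and Casp1 had CpG-poor windows and Apaf1 the most CpG-rich window, so the direction of the difference did not sort with CpG content. The core of the interferon-stimulated response element (GAAA, any 2 bases and GAAA again, searched on both strands) occurred in 3.92% of all windows and, among the 10 windows of these genes, in that of Casp1 alone. It lay on the reverse strand, beginning 28 bases before the start, shown here in capitals with its flanks (chr8:10872792-10872821, + strand), because Casp1 is known as an interferon-inducible gene in other cells.
Casp1 match: tgctagatgcTTTCAGTTTCagtagctctg
The cAMP response element TGACGTCA, bound by the spermatid activator CREM, was in 1.83% of all windows and in none of these 10. TATAAA was in 14.2% of all windows and, here, in that of Bcl2 alone. The Casp1 and Bcl2 matches lie in different windows and share no bases. A match is a match of letters only.

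Signals allowed tests for 8 of the 9 genes. The 75th percentile of the processed signal, in intensity units, ran between 1069.5 and 2423.3 over the arrays, the share of probes well above background lay between 65.3% and 76.4%, no probe was saturated, and arrays of 1 group correlated at 0.9814 to 0.9914. Levels below are log2 signal relative to the array's own 75th percentile, so 0 is that percentile, and they are compared within a probe and never between genes. Of the marker lists, 9 of 9 round spermatid genes were higher in round spermatids of saline rats, and 6 of 9 pachytene genes were lower. Of the other pachytene genes, Ccna1 was higher in round spermatids by 1.33 ± 0.19 (log2 difference ± SE), and Hspa2 (-0.17 ± 0.13) and Ldhc (-0.18 ± 0.14) did not pass. Genes of other cells differed too: 10 of 10 tested macrophage and leukocyte genes and 4 of 4 peritubular myoid genes were higher in round spermatids, while 7 of 8 Sertoli genes, all but Wt1, and 5 of 5 tested Leydig genes were lower, so marker signal of other cells differed between the fractions. Clu and Inha were the brightest Sertoli genes, Aif1 and Lyz2 the brightest macrophage genes, Insl3 and Cyp11a1 the brightest Leydig genes and Myh11 and Acta2 the brightest myoid genes. In the endothelial list, with Cdh5 and Kdr brightest, 2 of 4 were lower. Fewer cells of a type and less RNA per cell cannot be told apart on such arrays.

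**Figure D1:**
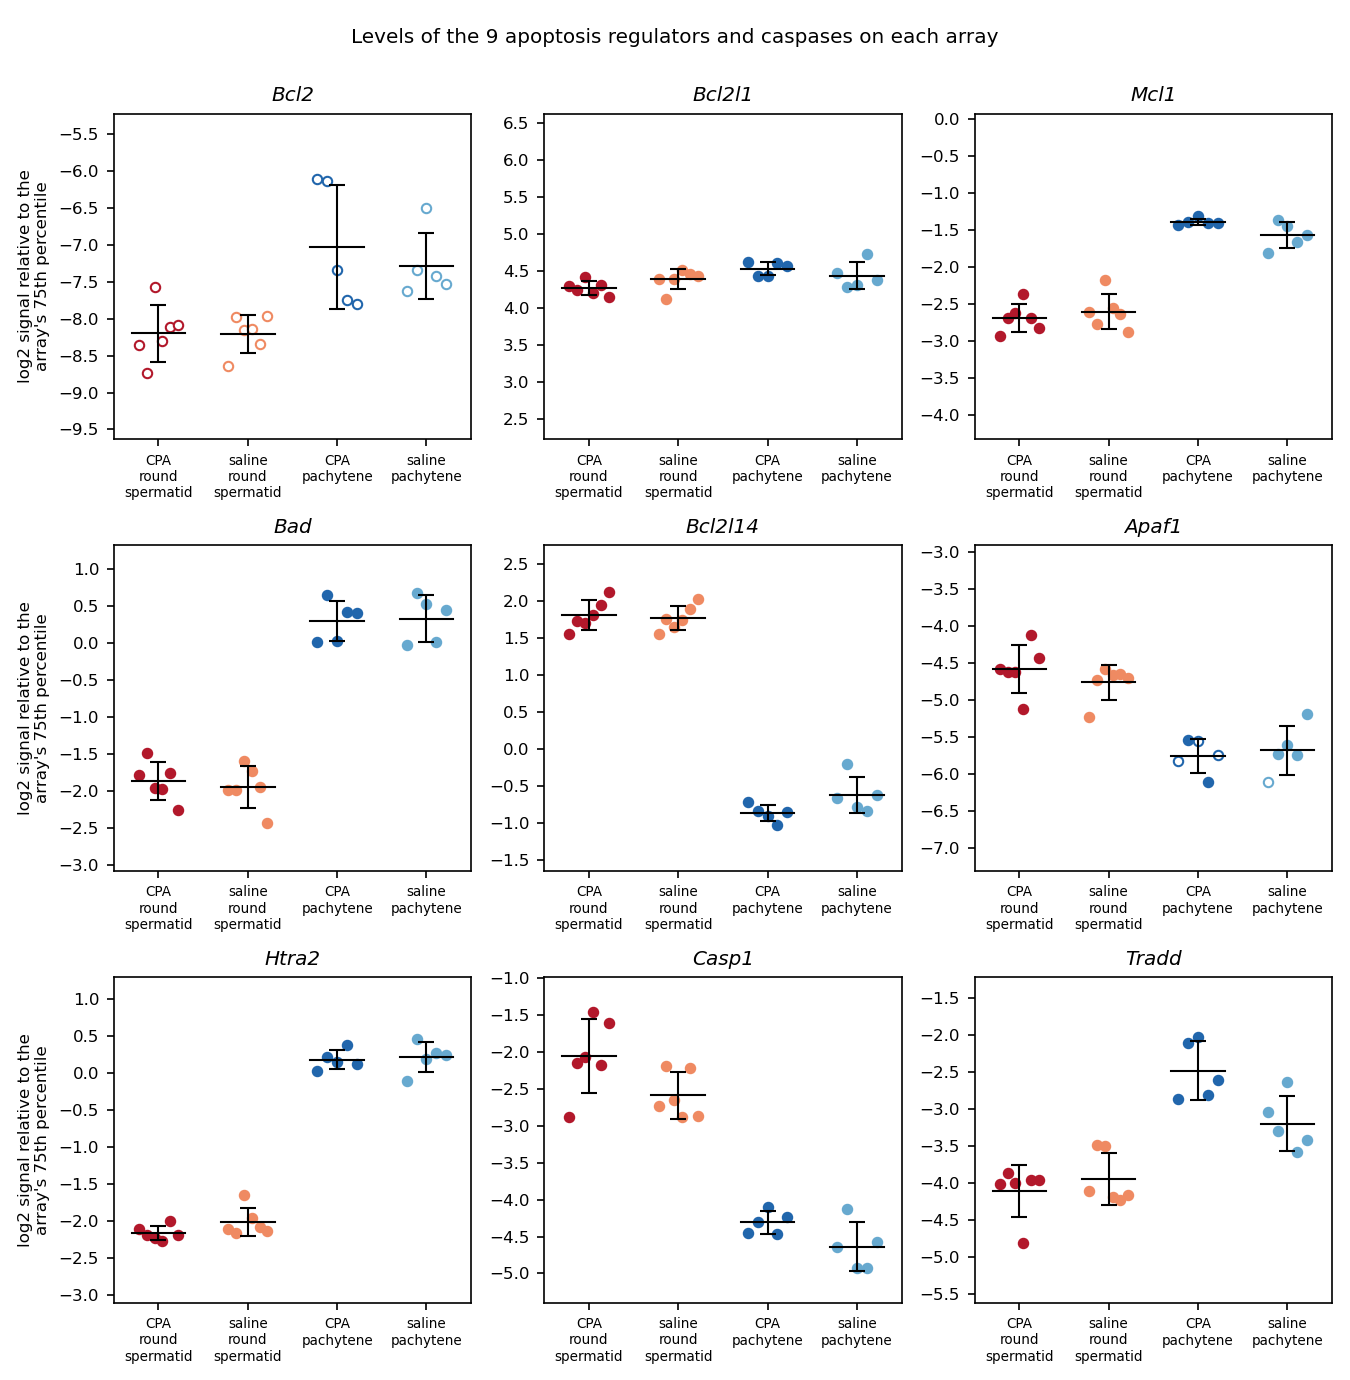
Each point is 1 array, the horizontal line and bars are the group mean ± SD, and the y axis is the log2 signal relative to the array's 75th percentile, with the same span in each panel. Open points were not well above background. Bcl2l14, Casp1 and Apaf1 sat higher in round spermatids, Bad, Htra2, Mcl1 and Tradd sat lower, Bcl2l1 differed little, and Bcl2 was open on all 22 arrays.

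Setting the round spermatids against the pachytene spermatocytes asked how these regulators differ between haploid and meiotic germ cells. Bcl2l14, Casp1 and Apaf1 were higher in round spermatids, and Bad, Htra2, Mcl1 and Tradd were lower, in cyclophosphamide rats as in saline rats. In cyclophosphamide rats 8 of the 8 genes tested passed (limma, Benjamini-Hochberg adjusted p under 0.05 over all 19332 genes), 3 higher and 5 lower, where 79.2% of all genes passed (38.8% higher and 40.4% lower). In saline rats 7 of 8 passed, 3 higher and 4 lower, where 75.3% of 19401 genes passed (38.3% higher and 37% lower). The counts of members thus lay near a high background. The median absolute log2 difference over the 8 members was 1.89 in cyclophosphamide rats and 1.54 in saline rats, and over all genes 1.04 and 0.89. The median signed difference of the members was -0.78 and -0.40, and that of all genes -0.02 and 0.01. Round spermatid and pachytene arrays did not overlap for 8 of 8 members in cyclophosphamide rats and 5 of 8 in saline rats, against 67.1% and 57.1% of all genes. The differences in cyclophosphamide rats and in saline rats rest on different arrays.

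**Figure D2:**
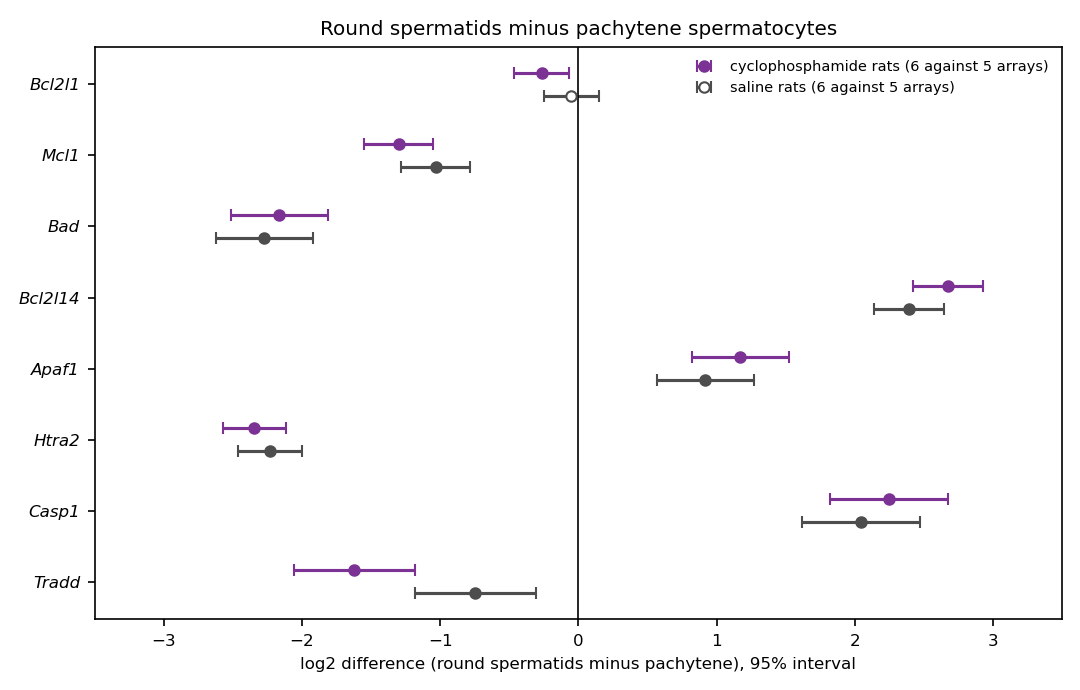
The x axis is the log2 difference, round spermatids minus pachytene spermatocytes, with 95% intervals from limma, for the 8 genes tested, in cyclophosphamide rats and in saline rats. Filled points passed at adjusted p under 0.05. Bcl2l14 (2.68 and 2.39), Casp1 (2.25 and 2.04) and Apaf1 (1.17 and 0.92) lie above 0, Bad, Htra2, Mcl1 and Tradd lie below it, and Bcl2l1 lies near it.

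Among the survival proteins, Bcl2, the founding member of the family, was not well above background on any of the 22 arrays. Its level was -8.20 ± 0.39 in round spermatids of cyclophosphamide rats and -8.21 ± 0.25 in those of saline rats (SD, n = 6 each), and -7.03 ± 0.84 in pachytene spermatocytes of cyclophosphamide rats and -7.29 ± 0.45 in those of saline rats (SD, n = 5 each). These are readings below the detection limit, so Bcl2 was not tested in the main comparisons and is given no fold.

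Bcl2l1, which encodes BCL-XL, was detected on every array. Its level was 4.15, 4.27 and 4.42 (lowest, median, highest) in round spermatids of cyclophosphamide rats, and 4.13, 4.41 and 4.52 in round spermatids of saline rats. Pachytene spermatocytes had 4.63, 4.44, 4.43, 4.61 and 4.57 in cyclophosphamide rats, and 4.48, 4.29, 4.31, 4.73 and 4.38 in saline rats. All 4 groups lay within a narrow band, and the 2 cell types overlapped in saline rats. In cyclophosphamide rats Bcl2l1 was 1.20-fold lower in round spermatids (-0.26 ± 0.10, log2 difference ± SE, limma adjusted p = 0.0158), with the lowest pachytene array only 0.01 above the highest round spermatid array. In saline rats the difference was -0.05 ± 0.10 (limma adjusted p = 0.648). Its 95% interval, -0.25 to 0.15, left room for a small difference in either direction. The cyclophosphamide call was lost with the slide as a block (-0.24, limma adjusted p = 0.0611), with the probes of the gene averaged (-0.20, adjusted p = 0.113), on slides 1 and 2 alone (-0.24, adjusted p = 0.102), within slide 1 (-0.10, adjusted p = 0.685) and within slide 2 (-0.37, adjusted p = 0.133). Quantile normalization brought a call in saline rats (-0.22, limma adjusted p = 0.0160). The gene had 4 probes. A second bright probe of the same transcript record gave -0.03 ± 0.10 in saline rats. A much weaker probe of another record, detected on every array, gave 0.17 ± 0.14. A dim probe of yet another record, above background on 3 of 6 round spermatid arrays, gave -0.60 ± 0.33. None of these 3 passed in saline or in cyclophosphamide rats.

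Mcl1, a short-lived survival protein, was lower in round spermatids. Its level was -2.94, -2.69 and -2.37 (lowest, median, highest) in round spermatids of cyclophosphamide rats, and -2.88, -2.63 and -2.18 in those of saline rats. Pachytene spermatocytes had -1.43, -1.39, -1.32, -1.41 and -1.41 in cyclophosphamide rats, and -1.82, -1.37, -1.45, -1.66 and -1.57 in saline rats. Every round spermatid array lay below every pachytene array. Mcl1 was 2.46-fold lower in round spermatids of cyclophosphamide rats (-1.30 ± 0.12, limma adjusted p = 1.24e-09) and 2.05-fold lower in those of saline rats (-1.03 ± 0.12, 95% interval 1.72 to 2.43-fold, adjusted p = 6.63e-08). Within the 2 slides that held both cell types, the difference was -1.37 and -1.22 in cyclophosphamide rats and -0.63 and -1.32 in saline rats, from 1 pachytene array of each treatment per slide.

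Bad, the BH3-only protein that survival kinases hold inactive by phosphorylation, was, with Htra2, the most strongly lower of the tested members in round spermatids. Round spermatids had -2.25, -1.87 and -1.48 (lowest, median, highest) in cyclophosphamide rats, and -2.43, -1.96 and -1.60 in saline rats. In pachytene spermatocytes the 5 arrays read 0.01, 0.65, 0.03, 0.42 and 0.40 in cyclophosphamide rats, and -0.02, 0.67, 0.53, 0.01 and 0.45 in saline rats. The cell types were separated by a gap of 1.49 in cyclophosphamide rats and 1.58 in saline rats, both wider than the range within any of the 4 groups. Bad was 4.48-fold lower in round spermatids of cyclophosphamide rats (-2.16 ± 0.17, 95% interval 3.51 to 5.71-fold, limma adjusted p = 7.00e-11) and 4.83-fold lower in those of saline rats (-2.27 ± 0.17, 95% interval 3.79 to 6.16-fold, adjusted p = 5.44e-11). Within slides 1 and 2 the difference was -2.47 and -2.30 in cyclophosphamide rats and -1.75 and -2.64 in saline rats.

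Bcl2l14 ran the other way and was the member with the largest difference in both treatments. Its level was 1.56, 1.77 and 2.13 (lowest, median, highest) in round spermatids of cyclophosphamide rats, and 1.56, 1.75 and 2.03 in those of saline rats. Pachytene spermatocytes had -0.71, -0.83, -0.90, -1.02 and -0.85 in cyclophosphamide rats, and -0.66, -0.20, -0.78, -0.83 and -0.62 in saline rats. The lowest round spermatid array stood 2.27 above the highest pachytene array in cyclophosphamide rats and 1.77 above it in saline rats. Bcl2l14 was 6.40-fold higher in round spermatids of cyclophosphamide rats (2.68 ± 0.12, 95% interval 5.36 to 7.63-fold, limma adjusted p = 2.87e-14) and 5.25-fold higher in those of saline rats (2.39 ± 0.12, 95% interval 4.40 to 6.26-fold, adjusted p = 3.06e-13). Its promoter window was the one with 0 CpG. The genes whose pattern over the 22 arrays lay nearest to it, of 11218 named genes compared, were Slc30a1, a zinc exporter, and Lrp2bp, with a root mean square difference of 0.13 log2 each, where the median gene stood at 1.33. Both had a similar difference between the cell types in saline rats (2.30 and 2.38), which places them near by construction.

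Apaf1, the scaffold of the apoptosome, was dim and higher in round spermatids. Its level was -5.11, -4.59 and -4.11 (lowest, median, highest) in round spermatids of cyclophosphamide rats, and -5.22, -4.68 and -4.57 in those of saline rats, above background on all 12 arrays. Pachytene spermatocytes had -5.82, -5.54, -5.55, -6.10 and -5.74 in cyclophosphamide rats, and -6.10, -5.73, -5.60, -5.74 and -5.19 in saline rats, above background on 2 and 4 of 5 arrays. The cell types did not overlap in cyclophosphamide rats and overlapped by 1 array on each side in saline rats. Apaf1 was 2.26-fold higher in round spermatids of cyclophosphamide rats (1.17 ± 0.17, 95% interval 1.77 to 2.88-fold, limma adjusted p = 1.34e-06) and 1.89-fold higher in those of saline rats (0.92 ± 0.17, 95% interval 1.48 to 2.41-fold, adjusted p = 3.99e-05). With normexp background correction the differences were 0.26 (limma adjusted p = 0.0771) and 0.24 (adjusted p = 0.111) and neither passed. With the probes averaged the saline difference was 0.61 and still passed. A second, dimmer Apaf1 probe did not reach the detection rule and was not tested.

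Htra2, the mitochondrial protease that blocks inhibitor of apoptosis proteins, was lower in round spermatids. Round spermatids read -2.27, -2.19 and -2.0 (lowest, median, highest) in cyclophosphamide rats, and -2.17, -2.10 and -1.66 in saline rats. The pachytene arrays read 0.02, 0.21, 0.15, 0.38 and 0.12 in cyclophosphamide rats, and -0.11, 0.45, 0.19, 0.27 and 0.24 in saline rats. The groups were tight and far apart, with a gap of 2.02 in cyclophosphamide rats and 1.55 in saline rats. Htra2 was 5.08-fold lower in round spermatids of cyclophosphamide rats (-2.34 ± 0.11, 95% interval 4.33 to 5.95-fold, limma adjusted p = 3.84e-14) and 4.70-fold lower in those of saline rats (-2.23 ± 0.11, 95% interval 4.01 to 5.50-fold, adjusted p = 1.78e-13). Rnf8, a ubiquitin ligase of the DNA damage response, lay nearest in pattern to Htra2 (0.13 log2 root mean square difference, median gene 1.18), followed by Heatr1 (0.13). Nudc and Rnf8 lay nearest to Bad (0.19 each, median gene 1.17). The distance spans both cell types, so genes with a similar difference between them lie near by construction. Rnf8 was at -2.13 in saline rats. Sertoli genes were lower in round spermatids in the same direction as Bad, Htra2, Mcl1 and Tradd: the mean log2 level of 8 Sertoli genes was -3.28 and -3.27 in round spermatids of cyclophosphamide and saline rats, and -1.13 and -1.11 in pachytene spermatocytes. Their part in these differences was not tested.

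Casp1, the inflammatory caspase, was higher in round spermatids. Its level was -2.89, -2.11 and -1.47 (lowest, median, highest) in round spermatids of cyclophosphamide rats, and -2.88, -2.70 and -2.19 in those of saline rats. Pachytene spermatocytes had -4.45, -4.30, -4.10, -4.46 and -4.24 in cyclophosphamide rats, and -4.64, -4.13, -4.92, -4.92 and -4.57 in saline rats. All round spermatid arrays lay above all pachytene arrays, with a gap of 1.21 in cyclophosphamide rats and 1.24 in saline rats. Casp1 was 4.74-fold higher in round spermatids of cyclophosphamide rats (2.25 ± 0.21, 95% interval 3.53 to 6.37-fold, limma adjusted p = 1.02e-09) and 4.12-fold higher in those of saline rats (2.04 ± 0.21, 95% interval 3.06 to 5.54-fold, adjusted p = 6.48e-09). With normexp background correction the differences were 1.48 and 1.25, and both still passed. Within slides 1 and 2 they were 1.91 and 2.49 in cyclophosphamide rats and 1.88 and 2.49 in saline rats.

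Macrophage genes moved with Casp1 between the cell types. All 10 tested of 11 macrophage and leukocyte genes were higher in round spermatids, and Ptprc, a defining leukocyte gene, was above background on 4 of 6 round spermatid arrays and 0 of 5 pachytene arrays in each treatment. The summed signal of the list, as multiples of the 75th percentile, was 53.8 to 89.5 in round spermatids of cyclophosphamide rats, 53.7 to 82.0 in those of saline rats, 8.79 to 18.3 in pachytene spermatocytes of cyclophosphamide rats and 9.997 to 22.4 in those of saline rats. That sum is weighted to the brightest genes of the list, Aif1 and Lyz2. Within a cell type, no relation of Casp1 to macrophage signal was detected. The mean log2 level of the macrophage genes varied less there than between the cell types, with an SD of 0.16 to 0.47 in the 4 groups. Between the cell types it stood at -0.57 and -0.68 in round spermatids and -3.44 and -3.14 in pachytene spermatocytes (cyclophosphamide and saline rats). With so few arrays, and a spread narrower than the difference between the cell types, the correlations cannot decide the part of macrophage RNA. Across the 12 round spermatid arrays Pearson's r was 0.23 (permutation p = 0.482, adjusted over 2 relations 0.911) and Spearman's rho 0.13 (permutation p = 0.682, adjusted 0.761), and r was -0.07 without the 2 arrays farthest from the median. Within slides r was 0.43 (n = 6, exact permutation p = 0.367) and 0.45 (n = 6, exact permutation p = 0.382). Across the 10 pachytene arrays r was -0.04 (permutation p = 0.911) and rho -0.12 (permutation p = 0.761), and r was -0.06 without the 2 farthest. The part of macrophage RNA in the difference between the cell types was not tested.

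**Figure D3:**
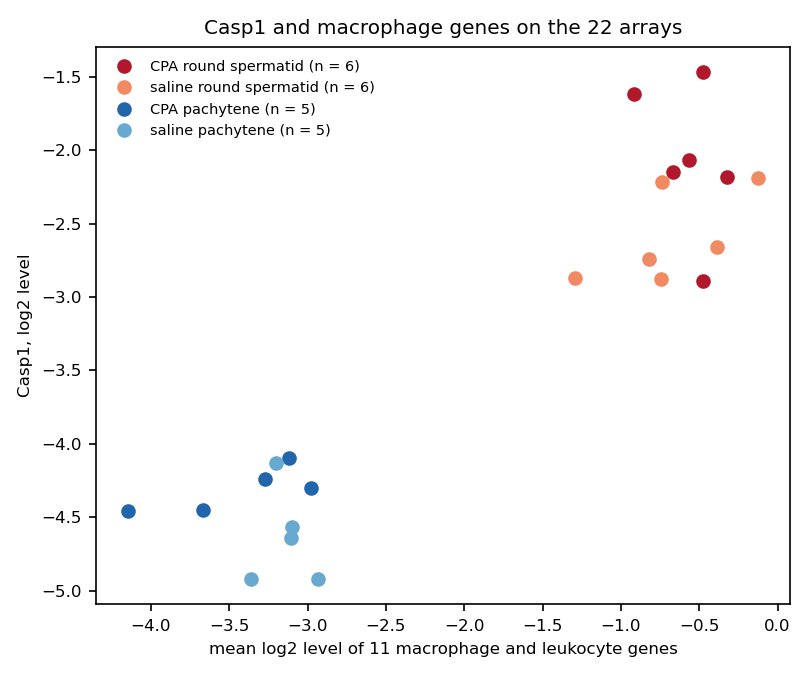
Each point is 1 array, with the mean log2 level of 11 macrophage and leukocyte genes on the x axis and the Casp1 log2 level on the y axis. The 12 round spermatid arrays and the 10 pachytene arrays form separate clouds, and within them r was 0.23 and -0.04.

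Tradd, the adaptor of TNF receptor signalling, was lower in round spermatids. Its level was -4.81, -3.98 and -3.86 (lowest, median, highest) in round spermatids of cyclophosphamide rats, and -4.22, -4.13 and -3.48 in those of saline rats. Pachytene spermatocytes had -2.86, -2.11, -2.02, -2.81 and -2.60 in cyclophosphamide rats, and -3.04, -3.30, -2.63, -3.58 and -3.42 in saline rats. The cell types were 1.0 apart in cyclophosphamide rats and overlapped slightly in saline rats. Tradd was 3.08-fold lower in round spermatids of cyclophosphamide rats (-1.62 ± 0.21, 95% interval 2.27 to 4.17-fold, limma adjusted p = 3.17e-07) and 1.68-fold lower in those of saline rats (-0.74 ± 0.21, 95% interval 1.24 to 2.27-fold, adjusted p = 0.00316). A second, dimmer Tradd probe gave -1.58 ± 0.34 and -1.33 ± 0.34 and passed in both (limma adjusted p = 0.000183 and 0.00117). That probe was above background on only 2 of 6 round spermatid arrays of cyclophosphamide rats and 3 of 6 of saline rats. Within slides 1 and 2 the difference was -1.88 and -1.61 in cyclophosphamide rats and -0.88 and -1.32 in saline rats, and that of slide 1 in saline rats no longer passed (limma adjusted p = 0.0895).

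Cyclophosphamide was then set against saline within each cell type, which asks how chronic exposure to the drug changed these genes. None of the 8 tested members passed in either cell type, and neither did any other gene: 0 of 18450 genes in pachytene spermatocytes and 0 of 18843 in round spermatids (0% each), where an unadjusted p under 0.05 was reached by 1345 (7.29%) and 626 (3.32%). At that unadjusted level 1 member stood in each cell type, Tradd in pachytene spermatocytes and Casp1 in round spermatids. The 95% intervals excluded a 2-fold change for 7 of 8 members in pachytene spermatocytes, all but Tradd, and for 8 of 8 in round spermatids. Cyclophosphamide and saline arrays overlapped for all 8 tested members in both cell types, where 0.623% of genes in pachytene spermatocytes and 0.191% in round spermatids did not overlap.

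**Figure D4:**
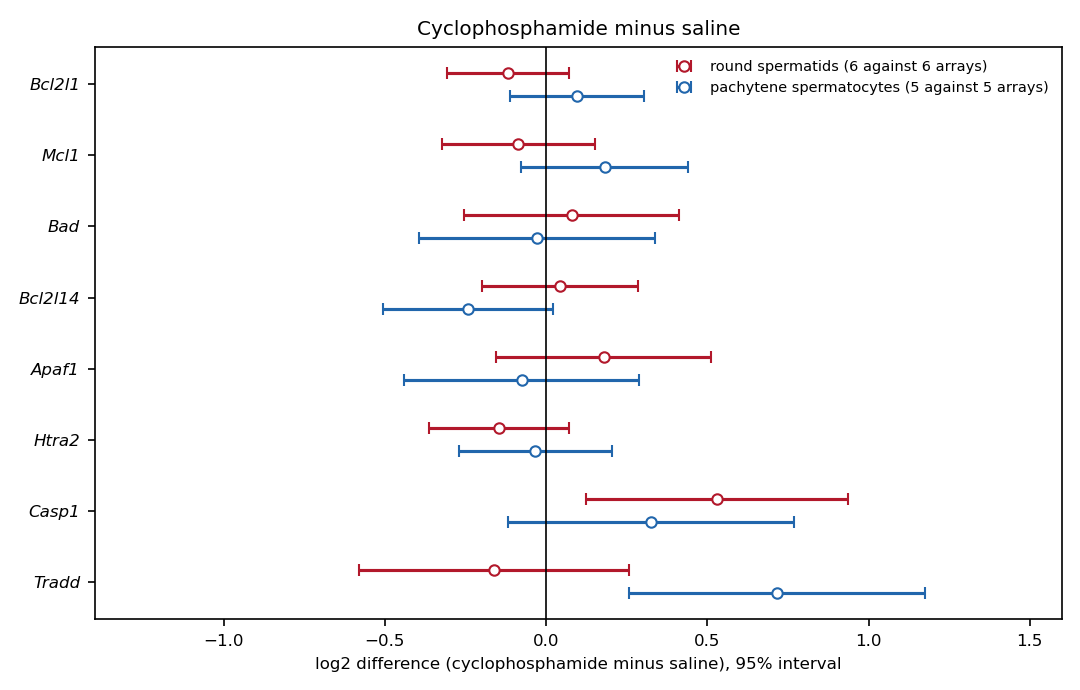
The x axis is the log2 difference, cyclophosphamide minus saline, with 95% intervals from limma, in round spermatids and in pachytene spermatocytes. All points are open, since none passed at adjusted p under 0.05. The interval of Tradd in pachytene spermatocytes (0.26 to 1.17) and that of Casp1 in round spermatids (0.12 to 0.94) do not reach 0 before adjustment.

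In pachytene spermatocytes Tradd averaged -2.48 ± 0.40 after cyclophosphamide and -3.20 ± 0.37 after saline (SD, n = 5 each). The arrays of both groups overlapped, and 5 of 5 cyclophosphamide arrays were above the saline mean. The difference was 0.72 ± 0.22 (1.64-fold, 95% interval 1.20 to 2.26-fold, limma adjusted p = 0.681). Within the 4 slides it was 0.94, 0.03, 0.98 and 0.63, and the second Tradd probe gave 0.49 ± 0.35. In round spermatids Tradd was -0.16 ± 0.20. The test of the difference between the 2 effects gave -0.88 ± 0.30 (limma adjusted p = 0.634), with -1.0 and -0.29 within slides 1 and 2. In that test the second probe, dim in round spermatids, gave -0.26 ± 0.48. No member and 0 of 19643 genes passed that test (0%), against 1502 (7.65%) at an unadjusted p under 0.05, of which Tradd was the only member.

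In round spermatids Casp1 averaged -2.06 ± 0.50 after cyclophosphamide and -2.59 ± 0.31 after saline (SD, n = 6 each). The groups overlapped, since the lowest array of all 12 was a cyclophosphamide array, and 5 of 6 cyclophosphamide arrays were above the saline mean. The difference was 0.53 ± 0.20 (1.44-fold, 95% interval 1.09 to 1.91-fold, limma adjusted p = 1.0), and within slides 1 and 2 it was 0.38 and 0.68. In pachytene spermatocytes it was 0.33 ± 0.21 (adjusted p = 0.755), with 5 of 5 cyclophosphamide arrays above the saline mean. The mean log2 level of the macrophage genes was -0.57 ± 0.20 after cyclophosphamide and -0.68 ± 0.40 after saline in round spermatids (SD, n = 6 each), and -3.44 ± 0.47 and -3.14 ± 0.16 in pachytene spermatocytes (SD, n = 5 each).

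Differences of the remaining members were smaller. In pachytene spermatocytes Bcl2l14 was -0.24 ± 0.13 (adjusted p = 0.681), with 5 of 5 cyclophosphamide arrays below the saline mean, and Mcl1 was 0.18 ± 0.13 (adjusted p = 0.766), with 5 of 5 above. The round spermatid marker list, high in the cell type where Bcl2l14 is high, was also lower: its mean log2 level was 2.89 ± 0.40 after cyclophosphamide and 3.37 ± 0.53 after saline (SD, n = 5 each), 5 of its 9 genes had an unadjusted p under 0.05 and 0 passed. Its part in the Bcl2l14 difference was not tested. Bcl2l1 (0.10 ± 0.10), Bad (-0.03 ± 0.18), Htra2 (-0.03 ± 0.11) and Apaf1 (-0.08 ± 0.18) completed the set in pachytene spermatocytes. In round spermatids the members other than Casp1 lay between -0.16 (Tradd) and 0.18 (Apaf1), with Bcl2l14 at 0.04 ± 0.12, Bad at 0.08 ± 0.16, Mcl1 at -0.09 ± 0.11, Bcl2l1 at -0.12 ± 0.09 and Htra2 at -0.15 ± 0.10.

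Other genes of the same pathways were read from 8 lists holding 56 genes, of which 51 were on the array. Between the cell types of cyclophosphamide rats 37 could be tested, and 10 were higher and 16 lower in round spermatids, that is 70.3% passing, against 79.2% of all genes. In saline rats 38 were tested, 12 higher and 13 lower (65.8%, against 75.3%). The median difference over the tested list genes was -0.16 in cyclophosphamide and -0.08 in saline rats, and over all genes -0.02 and 0.01. Genes of both routes thus went both ways in these lists. In the receptor group of saline rats, the higher side was Faslg and Tnfrsf1b, above background on 0 and 1 pachytene arrays. The members went both ways as a set, while Tradd, of the receptor route, was lower in both treatments. For the drug, 0 of 33 list genes tested in pachytene spermatocytes and 0 of 37 in round spermatids passed, and 0 reached an unadjusted p under 0.05.

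The pore-forming effectors, all 3 of which were tested and passed, went in opposite directions in saline rats: Bak1 was 2.67-fold higher in round spermatids (1.42 ± 0.13), Bok 3.88-fold lower (-1.96 ± 0.23) and Bax 1.97-fold lower (-0.98 ± 0.21). Of 7 BH3-only genes tested, 3 were higher and 1 lower. Bcl2l11, which encodes BIM, was 5.64-fold higher (2.50 ± 0.22), Pmaip1 (NOXA) 3.34-fold higher (1.74 ± 0.20) and Bbc3 (PUMA) 1.56-fold higher (0.64 ± 0.21), the last 2 above background on 4 and 3 of 5 pachytene arrays. Bnip3l, a mitophagy receptor, was 2.92-fold lower (-1.55 ± 0.14). Bad therefore differed in direction from the BIM, NOXA and PUMA genes. Of the other survival proteins, 1 of 2 passed, Bcl2l2 (BCL-W), 1.74-fold lower (-0.80 ± 0.19). Of the mitochondrial proteins released in apoptosis, 3 of 5 were lower and none was higher: Cyct, the testis cytochrome c, by -1.15 ± 0.14, Diablo by -0.94 ± 0.13 and Cycs, the somatic cytochrome c, by -0.46 ± 0.15. Htra2, of the same compartment, was lower too.

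**Figure D5:**
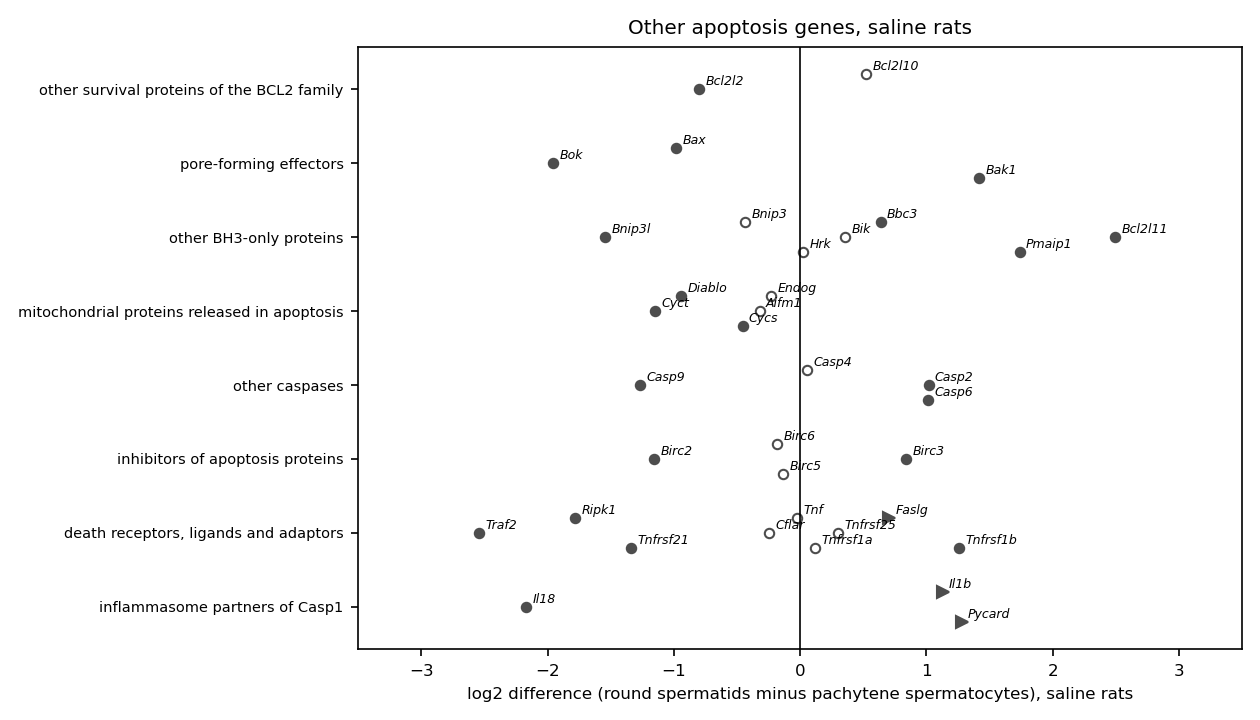
Each point is 1 other apoptosis gene, 37 of the 38 tested being drawn, placed by its log2 difference, round spermatids minus pachytene spermatocytes, in saline rats. Filled points passed at adjusted p under 0.05. Triangles are lower bounds, for Il1b, Pycard and Faslg, which were not well above background on any pachytene array. Genes lie on both sides of 0 in most lists, among them Bcl2l11 (2.50) on the right and Traf2 (-2.54) on the left.

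Among the other caspases, Casp2 was 2.02-fold higher (1.02 ± 0.14) and Casp6 2.02-fold higher (1.01 ± 0.16), whereas Casp9, the partner of Apaf1, was 2.41-fold lower (-1.27 ± 0.12). Casp8, Casp12 and Casp14 were not well above background on any saline array. Among the inhibitors of apoptosis proteins, Birc3 was 1.79-fold higher (0.84 ± 0.12) and Birc2 2.23-fold lower (-1.16 ± 0.18), 2 of 4 passing. In the receptor group, 2 of 9 were higher and 3 lower. Traf2, which binds Tradd, was 5.83-fold lower (-2.54 ± 0.19), Ripk1 3.44-fold lower (-1.78 ± 0.21, above background on 3 of 6 round spermatid arrays) and Tnfrsf21 2.52-fold lower (-1.34 ± 0.16), in the direction of Tradd. Tnfrsf1b, a TNF receptor, was higher by 1.26 ± 0.25, above background on 1 of 5 pachytene arrays. The other TNF receptor, Tnfrsf1a, was above background on every saline array and did not pass (0.12 ± 0.22, limma adjusted p = 0.626). Faslg, not well above background in any pachytene array of saline rats, was at least 1.63-fold higher. The limma call of Faslg (adjusted p = 0.000215) rests on pachytene readings not well above background and does not test that fold. With normexp background correction Faslg (0.06, adjusted p = 0.640) and Bbc3 (0.15, adjusted p = 0.311) no longer passed. Under the same correction Pmaip1 (0.76), Casp6 (0.42), Ripk1 (-0.77), Tnfrsf21 (-0.75) and Tnfrsf1b (0.28) still passed with smaller differences.

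Of 7 inflammasome partners of Casp1, 4 were on the array and 3 were tested. Il1b and Pycard were not well above background on any pachytene array of saline rats. They were higher in round spermatids, Il1b at least 2.19-fold and Pycard at least 2.43-fold. Both entered the test through the round spermatid arrays alone. Their limma calls (adjusted p = 3.65e-09 and 4.86e-06) rest on pachytene readings not well above background and do not test these folds. With normexp background correction Il1b was at 0.44 and Pycard at 0.35, and both still passed. Il18, the other interleukin that Casp1 matures, was 4.49-fold lower (-2.17 ± 0.21). Nlrp3 was not well above background on any saline array. Il1b and Pycard are also genes of macrophages, whose markers were higher in the same arrays, and the part of macrophage RNA was not tested for them either.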

How the data were processed

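The deposited scanner files give each spot's processed signal as an intensity, from which background and spatial trend had already been removed per the file headers. The submitters' processing notes name Feature Extraction 11.5.1.1 and the file headers name 10.7.3.1. Flags for control, background, saturated and outlier spots come from the same deposited files. The authors' deposited value table holds log2 values, apparently centred within each probe (array medians near 0), with the steps not given in the sources used here, and served as an alternative for the drug comparisons alone.

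Without control and outlier spots, log2 values were averaged per probe, and each array's 75th percentile was subtracted. Accessions named 17998 probes (59.3%) through RefSeq's table of assembly GRCr8, and 12369 had no symbol there. The probe with the highest mean stood for a gene, and a gene entered a test if, in 1 or more of the groups compared, no more than 1 array failed to show over 0.5 of its spots well above background. Differences were tested with limma 3.58.1 (statmod 1.5.0, R 4.3.3) on 4 group means over 22 arrays, with Benjamini-Hochberg adjustment over all genes tested, after a check on simulated data. Correlations and tables used Python 3.11.15, numpy 2.4.6, pandas 2.3.3, scipy 1.17.1 and matplotlib 3.10.9, with 100000 permutations where not exact. "At least" folds set the bright group's mean against, per array of the dim group, the higher of the lowest signal well above background and the probe's own signal.

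The genes and lists were chosen with earlier results of these data known. Named genes are all members, up to 3 genes higher and 3 lower per list that passed in saline rats, the 2 brightest genes of each list of other cell types, and the 2 genes nearest in pattern to each of 3 members. A few other genes, such as Tnfrsf1a, are named beside them. Alternatives were normexp background correction with an offset of 50 (on the median signals, since the mean signal was not used here), quantile normalization, no filter on dim probes, the mean of a gene's probes, the compared groups alone, the slide as a block, each slide, the replicate number as a block, the value table, each array left out and, chosen after seeing the data, slides 1 and 2 alone. Slides 1 and 2 held all groups, and slides 3 and 4, scanned on another day, held pachytene spermatocytes alone. A value within a slide can rest on 1 array of a group, assumed to vary like the others. The number of arrays limits the precision, and p-values measure the spread between these arrays. Some single genes of the lists, though part of the counts, are not reported here.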

Additional observations from a re-analysis of the deposited data

Results flagged for a closer look

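Among the 36 groups of a gene's levels, 4 held an array far from its neighbours, where chance gives about 1 in 20. The saline round spermatid array 16 had the lowest Bcl2l1 level of its group, at 4.13, with the others at 4.40 to 4.52. For Apaf1 the saline round spermatid array 15 was at -5.22, with the others at -4.73 to -4.57. The cyclophosphamide round spermatid array 25 had a Tradd level of -4.81, with the others at -4.01 to -3.86. Bcl2 read -6.51 on the saline pachytene array 25, against -7.63 to -7.34 on the others, all below background. The 4 flags fell on 4 different arrays.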

How the results depend on the processing

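No call of a member or of a list gene chosen by the rule for named genes changed sign under any alternative. Members passing between the cell types numbered 7 to 9 in cyclophosphamide rats and 6 to 8 in saline rats, and 8 and 7 with each array left out. The count of 9 includes Bcl2, tested only without the filter on dim probes, on readings below the detection limit. Other apoptosis genes passing numbered 21 to 29 and 21 to 30. Of 168 member values per treatment, 6 lost a call in cyclophosphamide rats, and 2 lost and 1 gained it in saline rats, as given beside Bcl2l1, Apaf1 and Tradd. Differences that had not passed changed sign in 3 alternatives in saline rats, 22 and 9 for the drug in pachytene spermatocytes and round spermatids and 5 for the difference between its effects. In cyclophosphamide rats every tested member had passed between the cell types, so none could be counted there. Of 525 values of 25 list genes chosen by the rule for named genes, 17 lost the call, among them Bax (-0.52) and Bcl2l2 (-0.35) within slide 1; the cause was not tested. For the drug in pachytene spermatocytes, the count over all genes was 5, 1, 1 and 4 within slides 1 to 4 and 0 to 1 with each array left out (1 without cyclophosphamide array 29). For the difference between effects it was 5 and 1 within slides 1 and 2 and 0 to 1 with each array left out (1 without 1 of the 2 cyclophosphamide pachytene arrays numbered 16, saline pachytene array 25 or round spermatid arrays cyclophosphamide 26, saline 15 or saline 29); no member was among the genes called. Over all genes, 11983 to 16652 passed between the cell types of cyclophosphamide rats and 10446 to 15664 of saline rats. With the replicate number as a block, 15319 and 14625 genes passed and the drug comparisons kept 0. Same-numbered arrays of the 2 cell types did not deviate together in every pair (r of -0.04 to 0.23), so the numbers were not used as pairs; whether equal numbers are the same rat is not known here. Of these, 4 of 11 arrays correlated best with their own number. The comparison of only the groups concerned does not apply to the difference between effects, and slides 3 and 4 give no value for round spermatids. Signal over background limits Bcl2, Apaf1 and the dim list genes.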
